A study of Mus musculus with 105 samples.

Results

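The transcript levels of 8 cholesterol synthesis genes were followed over 4 days of differentiation of female mouse embryonic stem cells. The genes were chosen by name from 52016 genes in the bulk count tables: Hmgcs1, Idi1, Fdft1, Sqle and Lss, which encode enzymes of the mevalonate and squalene steps, Nsdhl and Ebp, which encode enzymes of the last steps to cholesterol, and Insig1, which encodes the sterol sensor that shuts the pathway down. All 8 were found in the bulk and in the single-cell tables. Nsdhl and Ebp lie on the X chromosome and the other 6 on autosomes, so that the X-linked pair could also be read allele by allele while X inactivation took place.

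TX1072 is a female ES line from a cross of C57BL6/J (B6) and Cast/EiJ (Cast) mice, and clone A3 was used. Its B6 copy of Xist can be switched on by doxycycline through the transactivator rtTA, which is encoded at Rosa26. The other libraries came from lines derived from it, each a single clone, that lacked a 773 kb region around the X-inactivation centre on 1 X: TXdXicB6 lacked it on the B6 X and TXdXicCast on the Cast X. Xist, the RNA that starts X inactivation, can be made only from the intact X, so the inactive X (Xi) was Cast in TXdXicB6 and B6 in TXdXicCast, and the active X (Xa) was the other. Cells were grown with serum, LIF and the 2 kinase inhibitors known as 2i (day 0), and differentiation was induced by withdrawing LIF and 2i on fibronectin in serum-containing medium for 1, 2, 3 or 4 days. Bulk RNA-seq was available for each line and day in 3 replicates (45 libraries in 15 groups), and single-cell RNA-seq of TX1072 with unique molecular identifiers (UMIs) for 10 capture columns per day. The day of differentiation and the change of medium cannot be told apart in this design.

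Cholesterol is built from acetyl-CoA in a long chain of reactions: HMG-CoA is formed and reduced to mevalonate, isoprenoid units are joined to squalene, squalene is oxidised and closed to lanosterol, and lanosterol is trimmed to cholesterol. When sterols in the endoplasmic reticulum are scarce, SCAP escorts the membrane-bound factor SREBP-2 (encoded by Srebf2) to the Golgi, where the proteases encoded by Mbtps1 and Mbtps2 release it to activate the enzymes of the chain and Insig1. When sterols are plentiful, INSIG proteins hold SCAP back in the endoplasmic reticulum. Early embryos need this output for membranes, and loss of Nsdhl or Ebp function in females produces mosaic X-linked disorders, since cells differ in the allele they use.

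The start regions of 4 members, which the results below turn on, are shown first. Hmgcs1 was the member with the largest increase by day 4 in the bulk libraries of TX1072. Insig1 was the feedback gene that did not pass the test there on day 4, and Nsdhl and Ebp were the X-linked pair. Each sequence runs 5′ to 3′ from 250 bases before to 50 bases after the RefSeq start of the gene (GRCm38.p6), and capitals mark matches on either strand to TCACNCCAC (the sterol regulatory element motif of SREBP factors), CACGTG (the E-box) or CCAAT (the box bound by NF-Y). The Hmgcs1 window is chr13:119690101-119690400 (plus strand), the Insig1 window chr5:28071162-28071461 (plus strand), the Nsdhl window chrX:72918271-72918570 (plus strand) and the Ebp window chrX:8193463-8193762 (minus strand).
Hmgcs1: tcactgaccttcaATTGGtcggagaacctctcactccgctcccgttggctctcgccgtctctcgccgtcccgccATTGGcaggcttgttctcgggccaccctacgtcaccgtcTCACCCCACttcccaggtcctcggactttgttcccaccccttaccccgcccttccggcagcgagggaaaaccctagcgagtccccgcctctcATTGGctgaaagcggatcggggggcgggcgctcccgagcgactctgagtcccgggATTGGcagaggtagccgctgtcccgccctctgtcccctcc
Insig1: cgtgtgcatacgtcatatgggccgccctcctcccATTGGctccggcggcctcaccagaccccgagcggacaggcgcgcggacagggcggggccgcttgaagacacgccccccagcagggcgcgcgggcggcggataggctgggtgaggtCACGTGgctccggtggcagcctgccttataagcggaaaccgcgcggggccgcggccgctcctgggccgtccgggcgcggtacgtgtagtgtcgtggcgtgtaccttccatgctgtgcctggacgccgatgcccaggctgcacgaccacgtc
Nsdhl: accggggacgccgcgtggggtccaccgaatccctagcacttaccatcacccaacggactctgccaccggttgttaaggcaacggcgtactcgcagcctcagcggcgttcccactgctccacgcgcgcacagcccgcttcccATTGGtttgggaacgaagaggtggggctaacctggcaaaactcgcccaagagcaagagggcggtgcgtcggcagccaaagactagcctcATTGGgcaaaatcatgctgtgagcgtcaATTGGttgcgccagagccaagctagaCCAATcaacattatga
Ebp: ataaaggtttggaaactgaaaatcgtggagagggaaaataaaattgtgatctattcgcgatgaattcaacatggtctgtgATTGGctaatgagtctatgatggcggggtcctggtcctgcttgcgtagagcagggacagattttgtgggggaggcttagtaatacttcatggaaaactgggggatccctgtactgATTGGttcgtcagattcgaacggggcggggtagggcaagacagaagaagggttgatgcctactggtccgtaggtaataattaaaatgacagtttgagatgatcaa
Among 6 members with a start region in the RefSeq table (Sqle and Fdft1 had no entry), TCACNCCAC was found in Hmgcs1 alone, 137 bases before the start, and in 1.24% of 32851 start regions of the same length. CACGTG was found in Insig1 alone and in 7.15% of all start regions. All 6 held CCAAT, with 4 matches each in Hmgcs1 and Nsdhl, against 37.4% of all start regions. All 6 also held GGGCGG (the GC box of Sp1, not capitalised), against 35.7%. These are matches of letters, and binding was not measured here.

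Bulk libraries held 19827011 to 39628784 counts in TX1072, 20246434 to 49962859 in TXdXicB6 and 16906263 to 57920260 in TXdXicCast. Levels are given as counts per 1000000 autosomal counts after TMM scaling (CPM), differences as log2 fold changes with their standard error from edgeR's quasi-likelihood test, and p-values are Benjamini-Hochberg adjusted over all genes tested (19065 in TX1072, 19819 in the deletion lines), with 0.05 as the threshold. TX1072 and the deletion lines were prepared with other kits and read lengths and were fitted apart. Some libraries stood apart. RNA of TXdXicCast day 0 was degraded and fragmented differently, and its mitochondrial share of counts was 0.135% to 0.320%, so day 1 serves as a second baseline for both deletion lines. TX1072 day 0 replicate 3 and day 3 replicate 2 had mitochondrial shares of 7.90% and 8.57%. Autosomal counts assigned to an allele, as a share of all counts of the library, were 4.94% in TXdXicB6 day 0 replicate 1, 9.10% and 19.4% in TXdXicB6 day 2 replicates 2 and 1 and 21.8% in TXdXicCast day 3 replicate 3, against medians of 30.0% and 29.7% in these lines. These libraries stay in every value below unless a left-out replicate is named.

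Markers of the naive state were lower on day 4 in all 3 lines. The summed level of 6 naive pluripotency genes was 5049 CPM on day 0 and 454 CPM on day 4 in TX1072, 6494 and 490 CPM in TXdXicB6 and 5645 and 477 CPM in TXdXicCast, and none of the 6 was at 0. Xist, the check of the lines, was at 0.324, 0.611 and 0.870 CPM on day 0 and 198, 137 and 172 CPM on day 4 in TX1072, and on day 4 its level was 432, 656 and 598 CPM in TXdXicB6 and 297, 437 and 368 CPM in TXdXicCast, with a B6 share of its allelic counts of at most 0.0423% in TXdXicB6 and at least 99.8% in TXdXicCast. In TX1072, 5 formative or primed genes summed to 301 CPM on day 0, 3428 CPM on day 2, 2316 CPM on day 3 and 1025 CPM on day 4, with Dnmt3b the most abundant on each of these days. Of the markers of other cell types, 4 mesoderm genes summed to 15.7 CPM on day 0 and 247 CPM on day 4 (lowest 166, highest 371) with T the most abundant, 4 endoderm genes to 1.46 CPM on day 0, with Gata4 the most abundant, and 19.5 CPM on day 4 (lowest 9.68, highest 38.8), with Foxa2 the most abundant, and 3 neural genes to 3.04 and 2.41 CPM, with 8.85 CPM on day 3. In TXdXicB6 the mesoderm sum was 16.7 CPM on day 0 and 104 CPM on day 4 (lowest 88.4, highest 130), with Eomes the most abundant on day 4 and 1 of the 4 genes, Mesp1, at 0 on both days. The endoderm sum was 3.11 CPM on day 0 and 12.5 CPM on day 4 in TXdXicB6 (highest 15.4), and 2.58 and 13.5 CPM in TXdXicCast (highest 24.3). In TXdXicCast the mesoderm sum was 17.1 CPM on day 0. On day 4 it was 203 CPM in replicate 3 and 63.1 CPM in the lowest replicate. In the same line 4 fibroblast genes summed to 69.9 CPM on day 0, with Col1a2 the most abundant. In bulk libraries fewer cells of a type and less RNA per cell cannot be told apart, and the part of these markers in the results below was not tested.

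In TX1072 the members moved apart from each other during differentiation. By day 4, Hmgcs1, Lss, Idi1, Fdft1, Sqle and Nsdhl rose, Ebp fell, and Insig1 did not pass the test (6 higher, 1 lower, 1 not, against 31.0% of all genes tested higher and 27.8% lower). The count was 0 higher and 1 lower on day 1 (background 25.7% and 20.8%), 3 and 3 on day 2 (29.8% and 25.9%), and 4 and 2 on day 3 (28.3% and 27.0%). The median log2 fold change of the 8 members was 0.02, −0.12, 0.15 and 0.53 on days 1, 2, 3 and 4, where the median of all genes tested was 0.05, 0.04, −0.01 and 0.00. These 4 comparisons share the day 0 libraries. On day 1, Hmgcs1, Lss and Insig1 lay near the threshold and passed it with the replicate number as a block (adjusted p = 0.0385, 0.0239 and 0.0269), which makes the count 2 higher and 2 lower.

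Hmgcs1 (ENSMUSG00000093930, 13:119690379-119708260, plus strand, mm10) encodes HMG-CoA synthase, which makes HMG-CoA at the head of the mevalonate steps. In TX1072 its level was 174, 197 and 160 CPM in the 3 replicates of day 0, 280, 230 and 239 CPM on day 2, 586, 490 and 398 CPM on day 3, and 721, 661 and 750 CPM on day 4. Each of these days lay above day 0 with no overlap, and day 4 lay above day 3 in every library. The fitted change from day 0 was 0.49 ± 0.14 (log2, adjusted p = 0.00477) on day 2, 1.47 ± 0.14 on day 3 and 2.00 ± 0.14 on day 4, a 4.01-fold increase (adjusted p = 5.0e-10). Without 1 replicate at a time the day 4 change stayed between 1.87 and 2.14. Hmgcs1 shares exon positions with the antisense gene Gm48342, and the strand setting of the counting is not given in the sources used here, so its count could include reads of that gene.

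Idi1 (ENSMUSG00000058258, 13:8885501-8892451, plus strand) encodes isopentenyl diphosphate isomerase, which interconverts the 5-carbon building blocks. Its 3 TX1072 replicates held 18.5, 13.1 and 18.0 CPM on day 0, 43.3, 37.8 and 32.2 CPM on day 3, and 42.1, 30.9 and 41.9 CPM on day 4. Days 3 and 4 lay above day 0 and overlapped each other. The change from day 0 was 0.60 ± 0.20 (adjusted p = 0.0147) on day 2 and 1.21 ± 0.20 (2.31-fold, adjusted p = 3.48e-05) on day 4, with 0.02 from day 3 to day 4 (adjusted p = 0.955). It overlaps Gm48574 in exons.

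Fdft1 (ENSMUSG00000021273, 14:63145150-63179578, minus strand) encodes squalene synthase, the first step committed to sterols. Its replicates held 138, 189 and 126 CPM on day 0, 177, 135 and 126 CPM on day 3, and 203, 253 and 208 CPM on day 4. Day 3 overlapped day 0 and only day 4 lay above it in every library. The change from day 0 was −0.05 on day 3 (adjusted p = 0.847) and 0.56 ± 0.17 on day 4 (1.47-fold, adjusted p = 0.0102). Without replicate 3 the day 4 change was 0.46 and did not pass the test (adjusted p = 0.0851). Fdft1 overlaps Ctsb on the opposite strand in exons.

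Sqle (ENSMUSG00000022351, 15:59315077-59331192, plus strand) encodes squalene epoxidase, a rate-limiting step after squalene. Its replicates held 156, 182 and 144 CPM on day 0 and 222, 230 and 232 CPM on day 4. The increase was small and without overlap, at 0.51 ± 0.13 (1.42-fold, adjusted p = 0.00209).

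Lss (ENSMUSG00000033105, 10:76531588-76557138, plus strand) encodes lanosterol synthase, which closes the sterol ring. Its replicates held 55.8, 73.3 and 44.9 CPM on day 0, 98.9, 77.5 and 74.2 CPM on day 2, and 170, 181 and 162 CPM on day 4. Both later days lay above day 0, and day 4 above every earlier library. The change was 0.53 ± 0.16 on day 2 (adjusted p = 0.0111), 0.81 ± 0.17 on day 3 and 1.56 ± 0.17 on day 4 (2.94-fold, adjusted p = 1.84e-07). It shares exon positions with the antisense gene 4930483K19Rik.

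Nsdhl (ENSMUSG00000031349, X:72918557-72958514, plus strand) encodes a sterol dehydrogenase that removes methyl groups from lanosterol products. In TX1072 its level was 81.0, 108 and 92.3 CPM on day 0, 54.0, 41.4 and 41.5 CPM on day 2, 65.0, 56.5 and 58.9 CPM on day 3, and 97.5, 134 and 127 CPM on day 4. Day 2 lay below day 0, and day 4 lay above day 3 and overlapped day 0 in 1 replicate pair. Nsdhl fell by 1.04 ± 0.15 (log2) to day 2 (0.487 of the day 0 level, adjusted p = 6.73e-06) and rose by 0.99 ± 0.15 from day 3 to day 4 (1.98-fold, adjusted p = 6.46e-05). Between day 0 and day 4 the difference was 0.35 ± 0.14 (adjusted p = 0.043), and this did not pass with DESeq2 (adjusted p = 0.0587) nor without replicate 2 or 3 (0.0612 and 0.313).

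Ebp (ENSMUSG00000031168, X:8185329-8193512, minus strand) encodes the sterol isomerase that moves the double bond of the B ring. Its level was 163, 174 and 125 CPM on day 0, 59.1, 53.7 and 44.4 CPM on day 2, 43.4, 35.0 and 35.5 CPM on day 3, and 72.2, 86.0 and 77.4 CPM on day 4. Every library from day 2 on lay below every day 0 library, and day 3 was the lowest day. Ebp fell by 2.02 ± 0.15 to day 3 (0.247 of day 0, adjusted p = 8.3e-10) and rose by 1.05 ± 0.14 from day 3 to day 4 (2.07-fold, adjusted p = 2.87e-05), to 0.51 of day 0. The median of 746 X-linked genes tested was −0.12 on day 2 and −0.14 on day 3, so that Ebp stood at percentile 11.3 of them on both days, and Nsdhl at percentile 19.6 and 28.3. From day 3 to day 4 the X-linked median was −0.04, and Nsdhl and Ebp stood at percentiles 91.3 and 92.6.

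Insig1 (ENSMUSG00000045294, 5:28071363-28078662, plus strand), a target of SREBP that restrains it, did not rise with the enzymes in TX1072. Its level was 138, 156 and 122 CPM on day 0, 105, 102 and 99.7 CPM on day 1, 132, 86.9 and 80.1 CPM on day 2, 160, 90.79 and 90.02 CPM on day 3, and 129, 127 and 138 CPM on day 4. Replicate 1 was the highest library on days 2 and 3, and days 0 and 4 overlapped. The difference was −0.44 ± 0.20 on day 1 (adjusted p = 0.074), it passed the test on day 2 (0.717 of day 0, adjusted p = 0.0456), and it was −0.08 ± 0.20 on day 4 (adjusted p = 0.745). Without replicate 1 the day 3 difference was −0.63 and passed the test (adjusted p = 0.00301), against −0.29 with all 3 (adjusted p = 0.223).

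**Figure D1:**
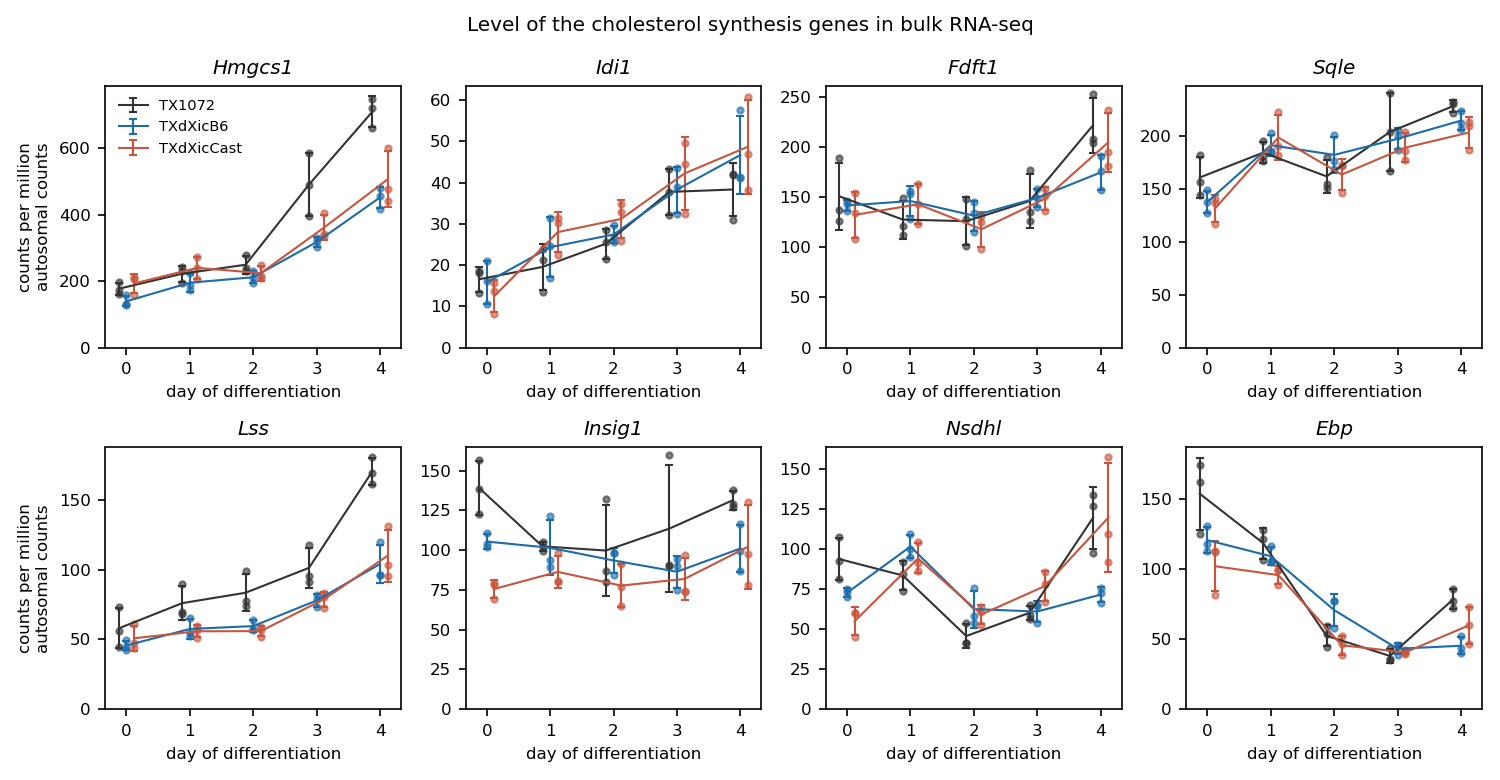
Level of the 8 members (CPM, 1 panel per gene, points for libraries, lines and bars for the mean ± SD of 3) against the day of differentiation in TX1072, TXdXicB6 and TXdXicCast. Hmgcs1 climbed in all 3 lines, while Ebp was lowest on day 3 in TX1072 (35.0 to 43.4 CPM) and higher on day 4 (72.2 to 86.0 CPM).

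Compared per exon length (CPM per 1000 exon bases, RPKM), the order of the members changed. The length is that of all annotated exons of a gene merged, 10787 bases for Lss and 2310 (Ebp) to 5546 (Sqle) for the other members. The place of a gene in the order, such as the low one of Lss, depends on this length as well as on its counts. On day 0 of TX1072 the means ran from Ebp (66.6 ± 11.1 RPKM, SD, n = 3) through Insig1 (45.0 ± 5.503), Hmgcs1 (38.6 ± 4.07), Fdft1 (35.7 ± 7.90), Nsdhl (32.8 ± 4.68) and Sqle (29.0 ± 3.47) to Lss (5.38 ± 1.33) and Idi1 (4.73 ± 0.855). Among neighbours in this order, the libraries separated only Ebp from Insig1 and Sqle from Lss. On day 4 the order was Hmgcs1 (155 ± 9.94), Fdft1 (52.4 ± 6.45), Insig1 (42.5 ± 1.91), Nsdhl (41.9 ± 6.77), Sqle (41.2 ± 1.01), Ebp (34.0 ± 3.01), Lss (15.8 ± 0.896) and Idi1 (10.9 ± 1.83). Insig1, Nsdhl and Sqle overlapped in that order and the other neighbours did not.

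The other genes of the pathway were counted from lists. Of 14 further sterol synthesis genes tested in TX1072, 11 were higher, 0 lower and 3 did not pass on day 4 (median 0.80). Of all genes tested 31.0% were higher and 27.8% lower on that day, with a median of 0.00. On day 2, 3 of the 14 were higher and 3 lower (29.8% and 25.9% of all genes tested). On day 4 the largest increases were in Cyp51 (lanosterol demethylase, 1.58 ± 0.16, adjusted p = 6.84e-08), Msmo1 (sterol methyl oxidase, 2.52-fold, adjusted p = 2.48e-06) and Mvd (mevalonate diphosphate decarboxylase, 1.15 ± 0.17, adjusted p = 1.36e-05). On day 2 the largest decreases in this list were in Pmvk (phosphomevalonate kinase, −1.22 ± 0.12) and Sc5d (lathosterol oxidase, −0.65), and Sc5d was 2.13-fold above day 0 by day 4.

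Of 6 genes that govern SREBP, 0 were higher and 2 lower at each of days 1 to 4 in TX1072. Of all genes tested 25.7% to 31.0% were higher and 20.8% to 27.8% lower on these days, so that a count this small is not read as particular to the list. Srebf2 held 99.3, 136 and 141 CPM on day 0 and 133, 199 and 156 CPM on day 4, which overlap (0.38 ± 0.18, adjusted p = 0.0737, or 0.0495 with the replicate block), and Scap differed by 0.24 (adjusted p = 0.217). Srebf1, whose product acts mainly on fatty acid genes, fell by 1.31 ± 0.14 to day 2 and was at −0.56 ± 0.14 by day 4 (adjusted p = 0.00164). Mbtps2, an X-linked gene for a protease that releases SREBP, held 80.6, 56.1 and 101 CPM on day 0 and 39.3, 36.7 and 46.6 CPM on day 4, below day 0 in every library (−0.95 ± 0.20, adjusted p = 0.000365).

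Of 5 genes of cholesterol uptake and transport, 4 rose by day 4 and 1 fell (31.0% and 27.8% of all genes tested). Lipa, the lysosomal lipase that frees cholesterol from taken-up esters, rose 3.88-fold and Lrp8, a lipoprotein receptor, 2.78-fold. Npc1, which moves cholesterol out of lysosomes, held 38.3, 48.1 and 39.1 CPM on day 0 and 103, 112 and 96.8 CPM on day 4, with no overlap (1.31 ± 0.12, adjusted p = 2.5e-08). Npc2, a lysosomal cholesterol carrier, was 0.581 of day 0 (adjusted p = 7.69e-05).

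Among the efflux and storage genes (7 of 8 passed the filter on low counts, Ch25h did not), 2 were higher and 3 lower on day 4. With 31.0% of all genes tested higher and 27.8% lower on that day, this count is not read as particular to the list. Soat1, which esterifies cholesterol for storage, held 21.6, 12.7 and 15.8 CPM on day 0 and 268, 234 and 249 CPM on day 4 (3.90 ± 0.17, adjusted p = 8.74e-13). Abca1, which exports cholesterol, held 97.6, 79.8 and 101 CPM on day 0 and 4.31, 4.47 and 5.11 CPM on day 4 (−4.32 ± 0.16, adjusted p = 8.61e-14). The groups of both genes lay far apart, in opposite directions. Of 9 fatty acid synthesis genes, 8 were lower and 0 higher on day 2 (25.9% and 29.8% of all genes tested). On day 4, 3 were lower and 1 higher (27.8% and 31.0%). Scd1, a stearoyl-CoA desaturase, was 0.176 of day 0 on day 2 and 0.382 on day 4, and Fads2, a fatty acid desaturase, was 1.71-fold higher on day 4.

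**Figure D2:**
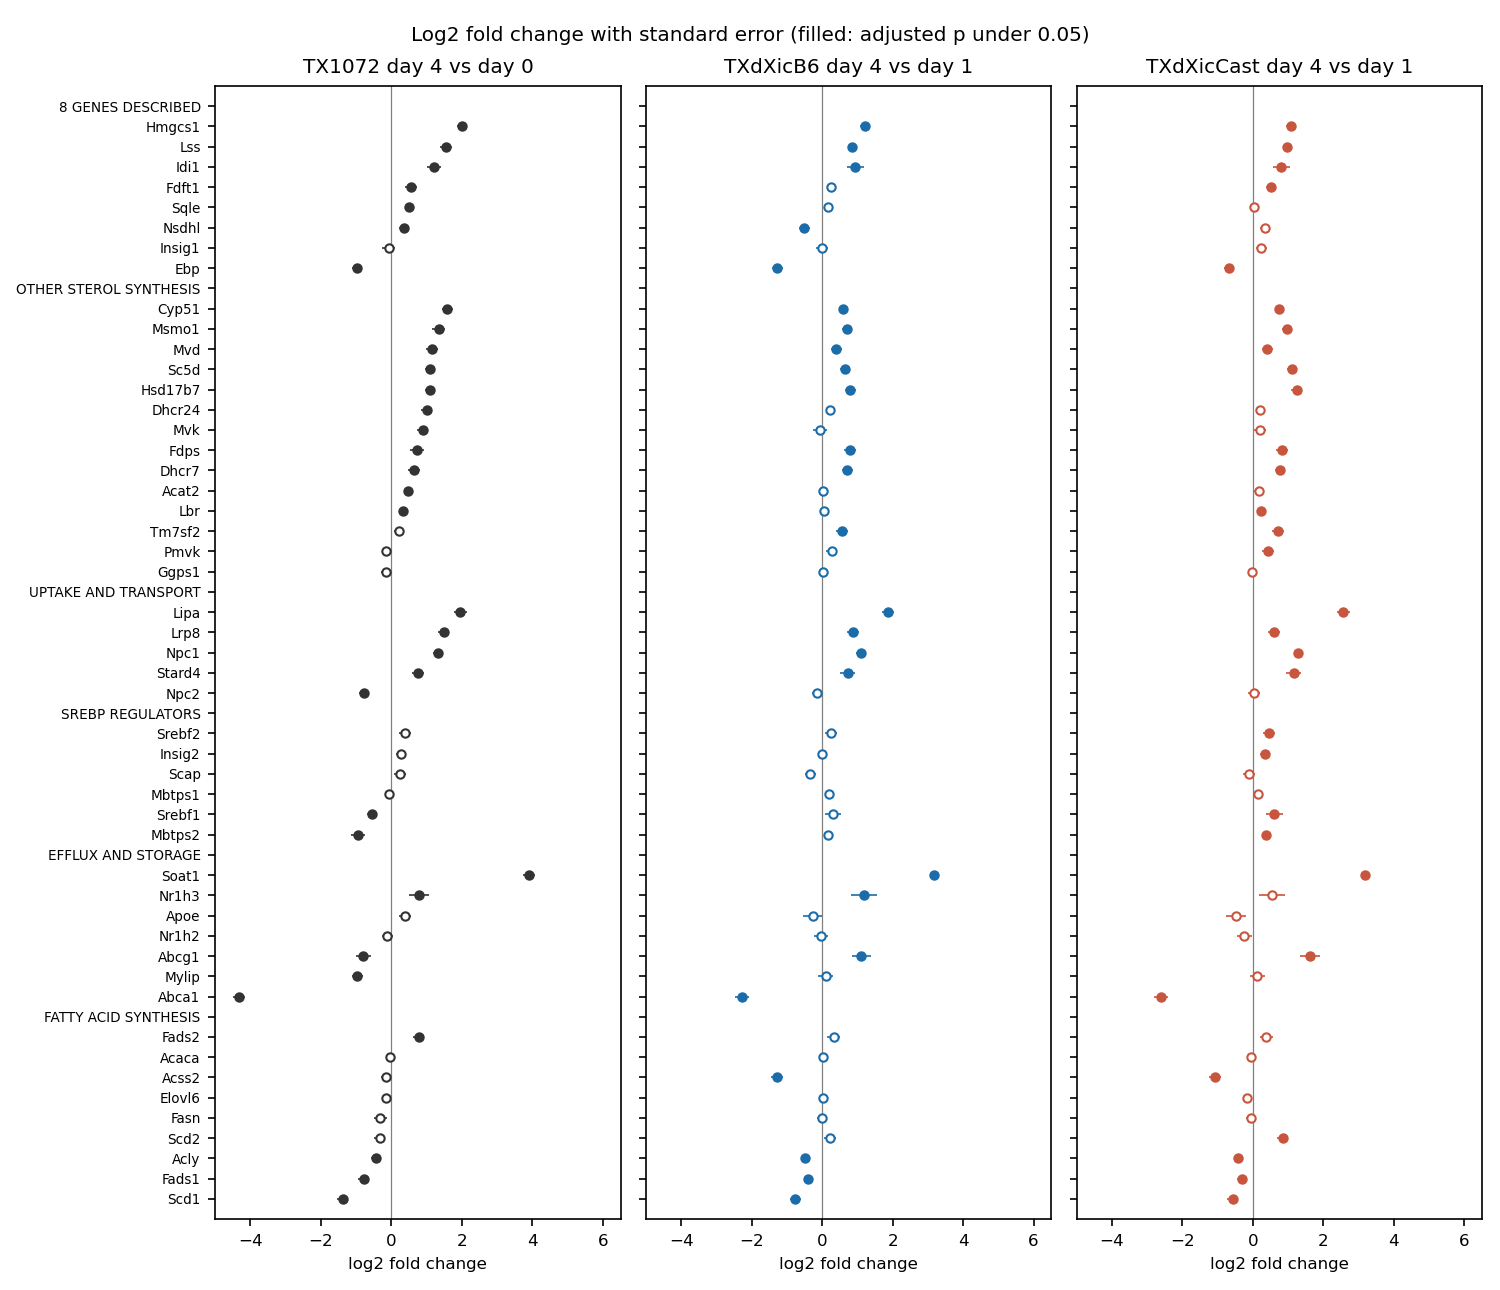
Log2 fold change ± SE of the members and of the listed genes of sterol synthesis, SREBP regulation, uptake, efflux and fatty acid synthesis in TX1072 (day 4 against day 0), TXdXicB6 and TXdXicCast (day 4 against day 1), with filled points for adjusted p under 0.05. Hmgcs1 and Cyp51 lie to the right at 2.00 and 1.58 in TX1072, and Abca1 far to the left at −4.32.

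In the lines with a fixed choice of Xi, Hmgcs1, Idi1 and Lss rose as well. From day 1 to day 4, 3 members were higher and 2 lower in TXdXicB6 (27.9% and 28.1% of all genes tested), and 4 were higher and 1 lower in TXdXicCast (29.7% and 29.1%). Against day 0 the counts were 4 and 1 in TXdXicB6 (29.9% and 29.0%) and 7 and 1 in TXdXicCast (35.4% and 34.0%), and day 0 of TXdXicCast is the day with degraded RNA. With the replicate number as a block, Fdft1 also passed as higher against day 0 in TXdXicB6. Hmgcs1 held 172, 189 and 225 CPM on day 1 and 418, 457 and 482 CPM on day 4 in TXdXicB6 (1.21 ± 0.13, 2.31-fold, adjusted p = 1.12e-08), with day 4 above day 1 in every library. In TXdXicCast Hmgcs1 held 206, 240 and 274 CPM and 441, 478 and 601 CPM (1.08 ± 0.13, 2.11-fold, adjusted p = 7.98e-08), again without overlap and with replicate 3 the highest on both days. Lss rose 1.81-fold and 1.97-fold and Idi1 1.91-fold and 1.74-fold in TXdXicB6 and TXdXicCast. Fdft1 was at 0.26 in TXdXicB6 (adjusted p = 0.104) and rose by 0.52 ± 0.13 in TXdXicCast (adjusted p = 0.00154). Sqle (0.17 and 0.03, adjusted p = 0.167 and 0.798) and Insig1 (−0.01 and 0.24, adjusted p = 0.974 and 0.196) did not pass in either line against day 1. Against day 0, Sqle rose in both (0.64 ± 0.10 and 0.63 ± 0.10, adjusted p = 3.5e-06 and 3.59e-06) and Insig1 in TXdXicCast (0.43 ± 0.16, adjusted p = 0.0177). Nsdhl fell to 0.704 of day 1 in TXdXicB6 (−0.51 ± 0.15, adjusted p = 0.00597) and was at 0.35 ± 0.15 in TXdXicCast (adjusted p = 0.0525, or 0.0417 with the replicate block). Against day 0, Nsdhl was at −0.02 ± 0.15 in TXdXicB6 (adjusted p = 0.91), so that the fall there was seen only from day 1, and rose 2.17-fold in TXdXicCast (adjusted p = 3.07e-07). Ebp fell to 0.414 of day 1 in TXdXicB6 (adjusted p = 2.74e-08) and to 0.624 in TXdXicCast (adjusted p = 0.000234).

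Between day 3 and day 4, Ebp and Nsdhl rose in TXdXicCast and did not pass the test in TXdXicB6. Ebp held 46.0, 44.8 and 38.5 CPM on day 3 and 52.0, 39.9 and 43.9 CPM on day 4 in TXdXicB6, which overlap (0.07, adjusted p = 0.835). In TXdXicCast Ebp held 42.1, 39.2 and 40.2 CPM on day 3 and 60.3, 46.2 and 72.6 CPM on day 4, above day 3 in every library (0.56, adjusted p = 0.00782). Nsdhl was at 0.23 in TXdXicB6 (adjusted p = 0.363) and rose by 0.64 in TXdXicCast (adjusted p = 0.00374). The member count from day 3 to day 4 was 2 higher and 0 lower in TXdXicB6 (8.12% and 7.22% of all genes), and 5 higher and 0 lower in TXdXicCast (10.5% and 7.46%), as in TX1072 (5 higher, 0 lower; 16.6% and 10.6%). The difference between the lines in this step was not tested.

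On day 4, TXdXicCast and TXdXicB6 differed in 1 member, Nsdhl, where 4.01% of all genes were higher in TXdXicCast and 1.55% lower. Nsdhl held 75.7, 66.1 and 72.6 CPM in TXdXicB6 and 109, 92.0 and 157 CPM in TXdXicCast, with no overlap (0.74 ± 0.15, 1.67-fold, adjusted p = 0.00325). Replicate 3 of TXdXicCast was the highest, and without replicate 3 the difference was 0.51 and did not pass (adjusted p = 0.147). The same replicate held 98.4 CPM of T and 15.9 CPM of Foxa2, against 20.7 and 12.3 CPM of T and 3.46 and 2.69 CPM of Foxa2 in the other 2, and the part of these markers in the Nsdhl difference was not tested. The change of Nsdhl from day 1 to day 4 differed between the lines by 0.85 ± 0.22 (adjusted p = 0.0597; 0.0303 with the replicate block), and that of Ebp by 0.59 ± 0.21 (adjusted p = 0.227), where 0.656% of all genes passed as higher. Of X-linked genes, 15.2% were higher in TXdXicCast on day 4 and 1.88% lower.

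The listed genes were counted in both deletion lines. From day 1 to day 4, 8 of 14 sterol synthesis genes were higher in TXdXicB6 and 10 in TXdXicCast, and 0 lower in both, where 27.9% and 29.7% of all genes tested were higher. Of uptake and transport genes 4 of 5 were higher in each, with Npc1 at 2.13-fold and 2.44-fold (adjusted p = 9.33e-09 and 4.02e-10). Of the SREBP regulators 0 of 6 were higher and 0 lower in TXdXicB6, and 4 of 6 higher (Srebf1, Srebf2, Mbtps2 and Insig2) and 0 lower in TXdXicCast. For none of the 6 did the test of the difference in change between the lines pass (edgeR, smallest adjusted p = 0.587, Insig2, 0 at an unadjusted p under 0.05, and 0 with DESeq2).

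The X-linked pair was then read by allele, with counts that overlap a SNP between B6 and Cast. The exons of Nsdhl hold 13 and those of Ebp 7 such SNPs. In TX1072, where either X can be chosen, the B6 share of allelic counts of Nsdhl lay between 32.1% and 51.8% over 15 libraries (182 to 605 allelic counts per library) and that of Ebp between 41.4% and 54.1%. Neither gene passed the test for a changed B6:Cast ratio on any day, and of 434 X-linked genes tested 6.91%, 11.5%, 9.45% and 11.3% did on days 1, 2, 3 and 4 against day 0.

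The Xi share of Nsdhl fell in both deletion lines. In TXdXicB6 its B6 (Xa) share was 43.0%, 41.2% and 39.3% on day 1, 65.0%, 61.3% and 60.3% on day 3, and 62.7%, 61.9% and 65.7% on day 4. In TXdXicCast, where B6 is the Xi, its B6 share was 42.5%, 41.6% and 40.1% on day 1, 33.8%, 31.5% and 28.9% on day 3, and 32.2%, 32.9% and 33.2% on day 4. The day 1 libraries separated from days 3 and 4 in both lines, and days 3 and 4 overlapped. The Xi:Xa ratio of Nsdhl changed by −1.29 ± 0.11 (log2) from day 1 to day 4 in TXdXicB6, where 73.2% of 497 X-linked genes were called lower, and by −0.54 ± 0.11 in TXdXicCast (adjusted p = 2.1e-06), where 56.9% were. The median of X-linked genes was −1.18 and −0.71. The exact permutation test of the shares of 3 against 3 libraries gave p = 0.1, the smallest it can give.

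In TXdXicB6 the Xi share of Ebp fell on day 4 and had not passed the test on day 3, where that of Nsdhl had. Its B6 (Xa) share there was 53.8%, 52.9% and 49.1% on day 1, 50.7%, 50.8% and 55.9% on day 3, and 65.0%, 66.2% and 65.7% on day 4. Days 1 and 3 overlapped and day 4 lay above both, while day 0 (46.7%, 47.2% and 50.4%) lay below day 3 without overlap (exact permutation test, p = 0.1, the smallest it can give). The Xi:Xa ratio of Ebp changed by −0.20 from day 0 to day 3 (adjusted p = 0.0817, with 60.2% of X-linked genes lower) and by −0.83 ± 0.11 from day 3 to day 4 (adjusted p = 2.1e-12, percentile 9.46 of the X-linked genes, 28.4% of which were lower). Nsdhl was at −1.08 ± 0.14 from day 0 to day 3 and −0.05 from day 3 to day 4 (adjusted p = 0.813), and the difference between the 2 genes was not tested. In TXdXicCast the B6 (Xi) share of Ebp was 52.3%, 51.0% and 50.1% on day 1 and 44.4%, 42.0% and 45.8% on day 4, a change of −0.39 ± 0.09 (adjusted p = 8.8e-05), but against day 0 (44.4%, 47.0% and 47.3%) it was −0.12 ± 0.09 (adjusted p = 0.258, 52.9% of X-linked genes lower). From day 0 to day 1 the ratio had risen there by 0.27 ± 0.09 (adjusted p = 0.022, 27 of 497 X-linked genes higher). The mean B6 share of Ebp was also higher on day 1 than on day 0 in TXdXicB6 (51.9% and 48.1%) and TX1072 (51.9% and 48.8%). How much of the −0.39 goes back to this rise was not tested.

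The Xi:Xa change of the X-linked pair was compared between the lines. The Xi is Cast in one and B6 in the other, so a shift of the B6:Cast ratio that both lines share also counts as a difference here. From day 1 to day 4 the change in TXdXicB6 was lower than in TXdXicCast by 0.75 ± 0.16 for Nsdhl (adjusted p = 1.1e-05) and by 0.42 ± 0.13 for Ebp (adjusted p = 0.0061), and the median over 497 genes was −0.50 (35.2% lower, 6.24% higher). From day 0 the difference was −0.90 ± 0.14 for Ebp (adjusted p = 6.2e-10) and −0.39 ± 0.18 for Nsdhl (adjusted p = 0.0771, and −0.49 to −0.19 without 1 replicate at a time), with a median of −0.48 (32.2% lower). Autosomal genes, which have no Xi, passed the same contrast as well: in a fit over all genes with allelic counts, 11.3% of 13783 were lower and 12.8% higher from day 1, and 13.9% lower and 13.9% higher from day 0, with medians of 0.01 and −0.0034. Among the autosomal members Hmgcs1 (−0.78 ± 0.10, adjusted p = 7.09e-10) and Lss (−0.49 ± 0.11, adjusted p = 0.000472) passed from day 0 and none of the 6 passed from day 1. The part of such shared shifts in the differences of Nsdhl and Ebp was not tested. Each line is 1 clone, so the strain of the Xi and the clone cannot be told apart.

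On the scale of counts of 1 allele per 1000000 allelic counts of autosomes, the 2 alleles of Nsdhl lay apart in opposite ways in TXdXicB6. The Xi (Cast) allele was at 44.0, 52.8 and 49.7 on day 1 and 24.3, 25.3 and 23.3 on day 4, and the Xa (B6) allele at 33.2, 37.1 and 32.3 and then 40.8, 41.2 and 44.6. Every day 4 library lay below day 1 on the Xi and above it on the Xa. In TXdXicCast the Xi (B6) allele of Nsdhl was at 31.5, 32.4 and 33.7 on day 1 and 30.7, 29.4 and 47.2 on day 4, which overlap, while the Xa (Cast) allele went from 42.6, 45.5 and 50.5 to 64.7, 59.8 and 94.98. Both alleles of Ebp were lower on day 4 than on day 1 in TXdXicB6, at 81.4, 94.4 and 84.7 and then 32.9, 24.8 and 27.6 on the Xi, and 94.8, 106 and 81.6 and then 61.1, 48.5 and 52.9 on the Xa. No test was run on the level of 1 allele.

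The genes beside the pair did not follow it as a block. Next to Nsdhl, Cetn2 (X:72913532-72918411) changed its Xi:Xa ratio by −1.96 and −0.80 from day 1 to day 4 in TXdXicB6 and TXdXicCast, and Zfp185 (X:72987339-73031543) by −1.51 and −0.94. Next to Ebp, Tbc1d25 (X:8154472-8176181) changed by −1.58 in TXdXicB6 and by 0.76 in TXdXicCast (adjusted p = 8.7e-09; 0.15 against day 0, adjusted p = 0.313), and Porcn (X:8193848-8206525) by 0.05 (adjusted p = 0.879) and −1.49. The neighbours of Nsdhl went the way of Nsdhl in both lines, and each neighbour of Ebp did so in only 1 line. In TX1072, where the Xi is not fixed, the B6:Cast ratio of Tbc1d25 also moved, by −0.71 on day 1 and 0.50 on day 4 against day 0 (adjusted p = 4e-05 and 0.0238), and its part in the opposite signs of the lines was not tested. Cetn2 and Porcn hold only 2 and 3 exonic SNPs.

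**Figure D3:**
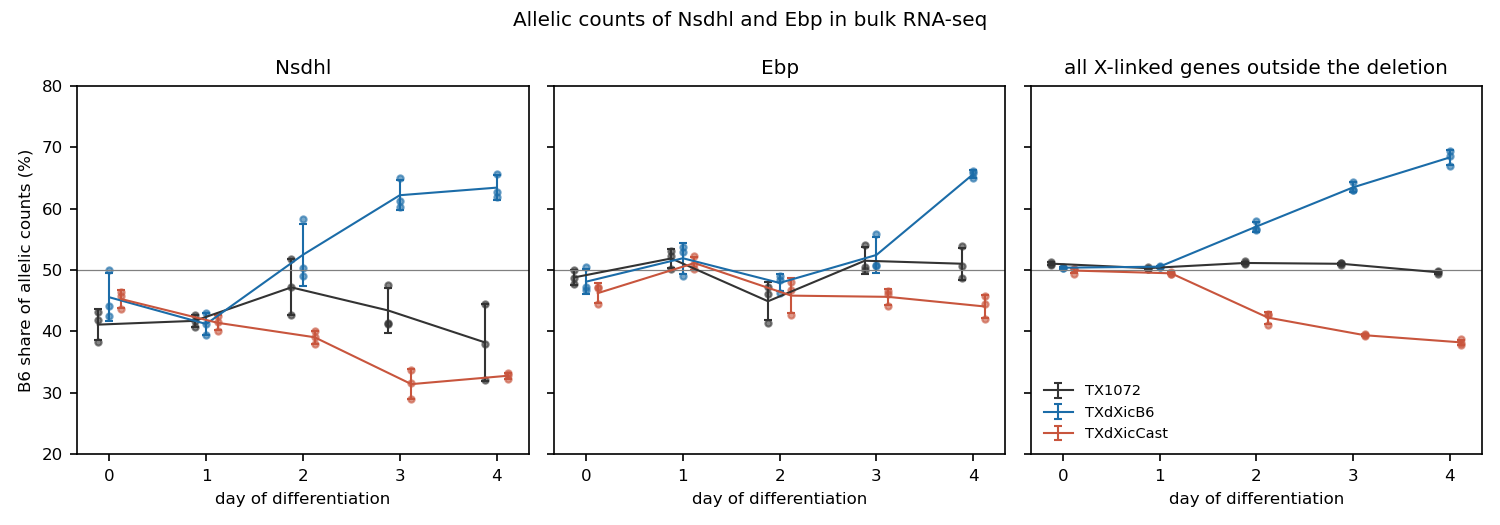
Share of allelic counts from the B6 allele (%) of Nsdhl, Ebp and all X-linked genes beyond the deletion against the day of differentiation, points for libraries, in TX1072, TXdXicB6 and TXdXicCast. In TXdXicB6 Nsdhl had reached 60.3% to 65.0% by day 3, when Ebp was at 50.7% to 55.9%, and both lay between 61.9% and 66.2% on day 4.

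Single cells of TX1072 gave the same members at cell level. Of 2000 capture sites with distinct names (0 names shared between capture columns), 1472 cells were retained by the study: 277, 325, 341, 257 and 272 from day 0 to day 4, with median UMIs of 138565, 124651, 125591, 130377 and 171158. Each day is 1 culture, from the population of bulk replicate 1, so no test between days was made, and the intervals here and below are at 95% and cover counting error only: those of levels (Poisson) and shares (binomial) are exact, and those of ratios are a normal approximation on the log scale. Pooled over cells, Hmgcs1 was at 87.9, 132, 182, 362 and 464 UMIs per 1000000 UMIs (UPM) from day 0 to day 4, a ratio of 5.27 (5.09 to 5.47) between the last and the first day. The capture columns of day 0 (58.8 to 104) and day 4 (281 to 567) did not overlap. Lss went from 14.7 to 78.3, a ratio of 5.33 (4.88 to 5.82), also without overlap of the columns (6.56 to 23.4 and 39.5 to 99.1). In bulk replicates 1, 2 and 3 the ratio of day 4 to day 0 was 4.14, 3.35 and 4.68 for Hmgcs1 and 3.04, 2.47 and 3.60 for Lss.

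The remaining members gave smaller or opposite ratios. Fdft1 went from 89.8 to 164 UPM (1.82, 1.75 to 1.90), and Sqle from 148 to 261 (1.77, 1.71 to 1.82). Insig1 stood at 35.5, 22.3, 37.3, 57.8 and 39.4, with its highest value on day 3 and a ratio of 1.11 (1.03 to 1.19) on day 4. Idi1 rested on 38 UMIs on day 0 and 160 on day 4 (0.971 and 3.52 UPM). Nsdhl was at 94.3, 84.0, 55.9, 79.7 and 177, lowest on day 2, and Ebp at 437, 291, 186, 112 and 234, lowest on day 3. The Nsdhl ratio of 1.88 (1.80 to 1.95) was above that of the bulk replicates (1.20, 1.24 and 1.38), and the Ebp ratio of 0.536 (0.523 to 0.549) lay within theirs (0.444, 0.494 and 0.619). Single-cell libraries read transcript ends and bulk libraries whole transcripts, so the 2 scales are set side by side and were not compared by a test.

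The share of cells with at least 1 UMI was also taken with each cell thinned to 40000 UMIs (no retained cell held fewer). For Ebp it was 98.9% of cells on day 0, 68.1% on day 3 and 93.0% on day 4 (97.6%, 59.1% and 82.7% after thinning). For Hmgcs1 it was 73.6% on day 0 and 98.2% on day 4 (64.7% and 95.1%), and for Lss 31.4% and 75.0% (22.4% and 58.8%). In these 3 members the share moved the same way as the level between these days. It did not always do so: for Fdft1 the level was 89.8 UPM on day 0 and 117 UPM on day 3, and the share 95.7% and 87.9% (86.6% and 79.0%). Cells differed widely within a day: the median cell held 44.2 UPM of Ebp on day 3, with the 10th percentile at 0 and the 90th at 345, and 160 (6.09 to 506) on day 4. For Hmgcs1 the median cell held 58.0 (0 to 219) on day 0 and 388 (75.1 to 910) on day 4. As a description across cells, which share their library and depth, the median Spearman correlation over the 28 pairs of members was 0.050 on day 0 and 0.196 on day 4, with the highest on day 4 between Hmgcs1 and Fdft1 (0.462).

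**Figure D4:**
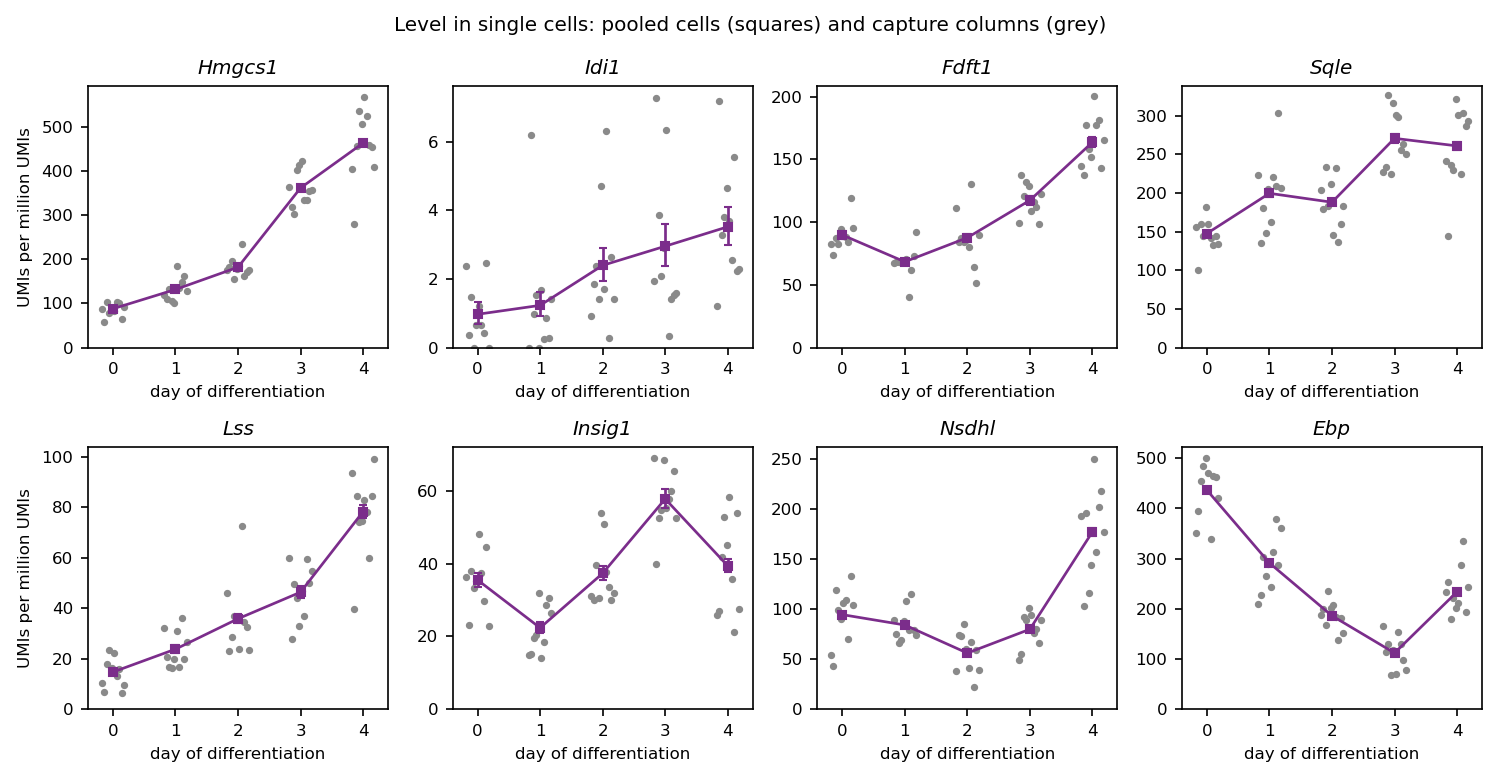
Level of each member in TX1072 single cells (UPM, UMIs per 1000000 UMIs) against the day of differentiation, with squares for all retained cells pooled, bars for the Poisson interval and grey points for the 10 capture columns. Hmgcs1 went from 87.9 to 464, while Ebp was lowest on day 3 at 112 and stood at 234 on day 4.

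Cells in which all of more than 5 allelic Xist UMIs came from 1 allele showed where Nsdhl and Ebp were transcribed. On day 3 the B6 share of Nsdhl UMIs was 8.29% (4.81 to 13.1) in 61 cells with Xist from B6 and 77.8% in 38 cells with Xist from Cast. Ebp on day 3 was at 28.9% and 50.0% (40.7 to 59.3) in the same cells, so its shares lay closer together than those of Nsdhl. On day 4 the shares were 9.62% (7.13 to 12.6) and 82.3% (76.0 to 87.6) for Nsdhl, and 26.7% (23.9 to 29.6) and 79.7% (75.3 to 83.7) for Ebp, in 79 and 43 cells. All X-linked genes together stood at 25.5% and 86.9%, and autosomal genes stayed near equal shares in every class. In 46 cells of day 4 with no Xist detected, the shares were 39.5% for Nsdhl, 40.7% for Ebp and 50.3% for X-linked genes, and in 260 such cells of day 0 they were 42.1% and 45.7% for the pair. In 70 such cells of day 1 the shares were 43.8% (36.1 to 51.8) for Nsdhl and 59.1% (55.8 to 62.3) for Ebp.

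**Figure D5:**
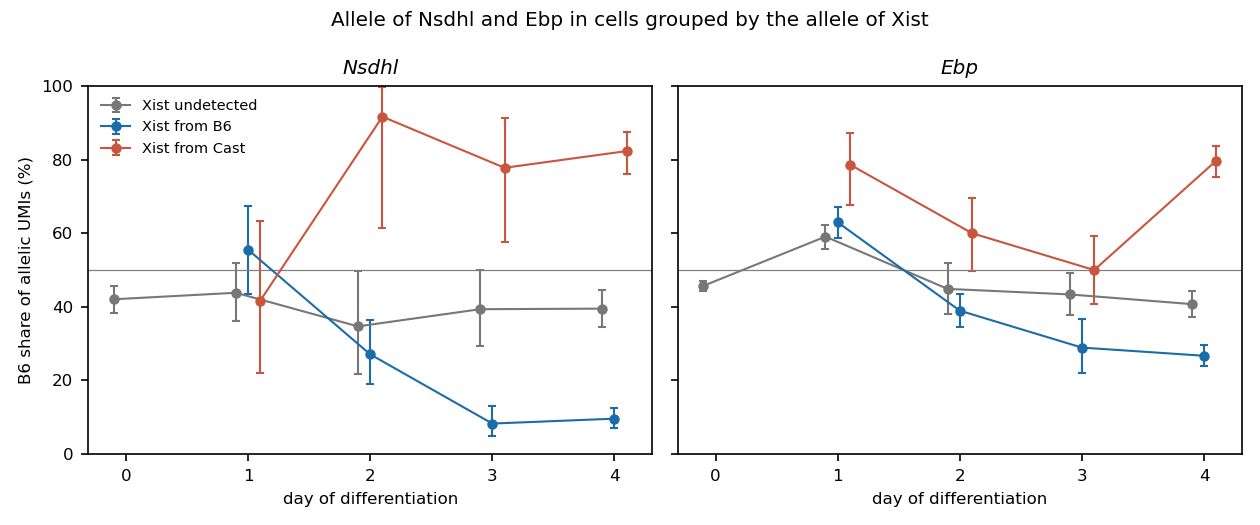
Share of allelic UMIs from the B6 allele (%) of Nsdhl and Ebp by day in cells with Xist undetected, from B6 or from Cast, with exact binomial intervals. On day 3 the Nsdhl shares of the 2 Xist classes (8.29% and 77.8%) lay farther apart than those of Ebp (28.9% and 50.0%), and on day 4 both genes were split.

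Of 11855 candidate genes, 4 of the 5 whose log2 CPM followed the mean of the 8 members' standardised levels most closely over the 15 TX1072 libraries were Sc5d (r = 0.93; 0.88 over the 30 deletion-line libraries), Fdps (0.92; 0.55), Tax1bp3 (0.92; 0.75) and Tmbim6 (0.91; 0.53). These correlations describe libraries that share days and depth, and carry no test. Among the members, Hmgcs1 followed Lss with r = 0.91, 0.95 and 0.96 over the 15 libraries of TX1072, TXdXicB6 and TXdXicCast, and Idi1 with 0.89, 0.93 and 0.84. With Ebp it gave −0.52, −0.89 and −0.39, and Nsdhl with Ebp gave 0.63, 0.60 and 0.09.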

How the data were processed

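Total RNA of 45 bulk libraries and single cells of TX1072 were sequenced. The authors aligned reads with STAR 2.5.2b to mm10/GRCm38 with SNPs masked, counted exonic reads per gene with featureCounts of the R package Rsubread (strand setting not given in the sources used here), and deposited raw counts per gene, in total and for reads assigned to B6 or Cast, and UMI counts per cell. The SNP positions were deposited as a table without measurements. A total of 0 value columns went unmapped.

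Here, R 4.3.3 with edgeR 4.0.16 was used: library size was the autosomal total times its TMM factor, low counts were removed with filterByExpr, and quasi-likelihood tests were fitted over all genes of the 15 TX1072 and, apart, of the 30 deletion-line libraries. Xi:Xa ratios were fitted with a term per library over 497 X-linked genes. Exon lengths for RPKM came from GENCODE M21, with all exons of a gene merged. Depth ranged from 16906263 to 57920260 counts per library, and per-gene precision is given as SE, SD or interval. Python 3.11.15 was used for single cells, restricted to the cell names listed by the study. The 2 sequencing runs of each day 1 column had been merged by the authors and count as 1. Per-allele spliced and unspliced counts were not analysed here. Scripts were tested on simulated counts.

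The members and gene lists were chosen with earlier results of these data known. Named genes were the 8 members, Srebf1, Srebf2, Scap and Mbtps2, and up to 3 genes per list and direction past the threshold without overlap of replicates, plus the 5 genes most like the members and the nearest X-linked gene with at least 50 allelic counts on each side. Some genes these rules name or lists hold are not reported here and are left out of the counts of the lists. Mesp1, T, Eomes, Foxa2 and Insig2 are given beside these and were chosen after their values were seen. Alternatives were DESeq2 1.42.0, other scalings, no filter, the replicate block and leaving out replicates. Differentiation was induced on different days for each replicate number, in the study's reporting summary, so that the number pairs libraries: deviations from the group means correlated with a median r of 0.12, 0.20 and 0.15 between libraries of 1 number in TX1072, TXdXicB6 and TXdXicCast (30 pairs each) and of −0.07, −0.10 and −0.11 between others (60 pairs each).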

Additional observations from a re-analysis of the deposited data

Results flagged for a closer look

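Values of the 10 capture columns of a day were compared within each of 40 groups (8 members on 5 days), and 5 highest columns stood far from the other 9, where chance gives about 1 in 20. In UMIs per 1000000 UMIs, they were Fdft1 on day 0 (119, next column 95.3), Sqle on day 1 (303, next 223), Idi1 on day 1 (6.20, next 1.67), Hmgcs1 on day 2 (234, next 196) and Lss on day 2 (72.4, next 46.2).

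The allelic change differed between the deletion lines by the test of the difference itself. For the Xi:Xa ratio, TXdXicB6 minus TXdXicCast was −0.90 (log2) for Ebp from day 0 to day 4, −0.75 for Nsdhl from day 1 to day 4 and −0.42 for Ebp from day 1 to day 4, each past the adjusted p threshold among 497 X-linked genes. Of 13783 autosomal genes, 3834 passed the same contrast from day 0 and 3326 from day 1, Hmgcs1 (−0.78) and Lss (−0.49) from day 0 among them. A B6:Cast shift shared by both lines also counts as a difference in this contrast.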

How the results depend on the processing

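Of 1856 member fold changes recomputed in bulk, 1754 stayed on the same side of the threshold, 38 came to pass it and 64 no longer did (60 of them with 1 replicate left out). A change of sign was counted only where 1 of the 2 fits passed, and 0 were found. Signs did differ among values that did not pass: Fdft1 on day 3 of TX1072 was at −0.27 (log2) without replicate 1 and 0.20 without replicate 2. For TX1072 day 1 against day 0, 2 members were higher and 2 lower without a filter on low counts and with the replicate block, and 2 lower with DESeq2; leaving out a replicate gave 0 to 2 higher and 0 to 1 lower. Leaving out a replicate gave 1 to 3 members higher at TX1072 day 2, and 1 to 2 lower in TXdXicB6 from day 1 to day 4. Between the deletion lines on day 4, 1102 genes were called, 1655 with the replicate block, and 316 to 422 without 1 replicate, with 0 to 1 member higher. For the difference of the change from day 1 to day 4, 143 genes were called, against 418 without a filter, 269 with the replicate block, 355 with DESeq2 and 0 to 33 without 1 replicate; 1 member, Nsdhl, was higher under these first 3 and with DESeq2 size factors, and 0 otherwise. The replicate block brought 11 member calls past the threshold and lost 0, among them Fdft1 in TXdXicB6 (day 4 against day 0, adjusted p = 0.0305 against 0.054). With day 1 in place of day 0, the Xi:Xa change of Ebp in TXdXicCast was −0.39 and the Nsdhl difference between the lines −0.75, both then past the threshold. With more than 10 allelic Xist UMIs required, the B6 share of Ebp over days 1 to 4 was 34.1% in cells with Xist from B6 (38.3% with more than 5) and 77.9% in those with Xist from Cast (71.4%). In single cells 527 of 544 values counted as unchanged, a log2 ratio when it moved by less than its spread. That spread was the SD over capture columns, or the counting error where a column held no UMI. A change of sign within the spread also counted as unchanged. Of 16 shares of cells with a UMI recomputed at 40000 UMIs per cell, 15 lay below the binomial interval of the unthinned share. Idi1 reversed on day 1, at −0.30 (log2 ratio to day 0) without capture column 2 of day 1 against 0.34 with all. For Idi1, 1 column at a time left out gave −0.30 to 0.59. The cause of these changes was not tested. Low counts limit Idi1 in single cells and the Nsdhl shares of the libraries with few allelic counts.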

Other observations

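The deposited split of UMIs into spliced and unspliced reads gave values that enter no comparison above. The unspliced share of Hmgcs1 UMIs was 0.551% on day 0, 1.72% on day 1, 3.00% on day 2, 3.80% on day 3 and 3.86% on day 4. Fdft1 went from 3.96% on day 0 to 11.2% on day 1 and 8.05% on day 4. Nsdhl stood at 3.18%, 2.28%, 5.35%, 5.01% and 1.88% from day 0 to day 4, and Ebp between 0.660% and 0.833%. All genes together stood between 10.7% and 13.3% on every day.

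The autosomal members were not balanced between the alleles in the same way. Over 45 bulk libraries the B6 share of allelic counts had a lowest value, median and highest value of 38.7%, 49.5% and 54.3% for Hmgcs1, 46.1%, 48.7% and 53.6% for Sqle, 50.9%, 57.2% and 60.6% for Lss, and 50.0%, 58.1% and 69.4% for Insig1. That of Fdft1 was split, at 25.1% to 34.1% in TX1072 and 41.7% to 48.6% in the deletion lines, with no overlap. Kit and read length also differed between these libraries, so the line and the library preparation cannot be told apart here. Idi1 rested on 4 to 462 allelic counts per library.

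Levels by Xist class are in UMIs per 1000000 UMIs, for cells with Xist undetected, from B6 and from Cast in that order. On day 3 they were 87.7, 103 and 27.8 for Nsdhl, 182, 55.5 and 82.4 for Ebp, and 325, 417 and 340 for Hmgcs1. On day 4 they were 193, 145 and 112 for Nsdhl, 286, 210 and 154 for Ebp, and 388, 524 and 430 for Hmgcs1. The order of the classes for Nsdhl and Ebp differed between the days.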
